A study of Rattus norvegicus with 3 samples.

Results

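Alpha and beta tubulin are the building blocks of microtubules, and 6 of their isotypes, Tubb2a, Tubb2b, Tubb3, Tubb5, Tuba1a and Tuba4a, were followed in single cell bodies of cultured rat neurons. The isotypes were selected on earlier results of the same arrays, in which Tubb2a and Tubb2b read among the highest genes, so their levels are given as a description and carry no test. Probe sets were taken whose only gene symbol in the array annotation was 1 of the 6 names. They numbered 7 and covered 5 of the 6 isotypes, out of 14218 genes measured. Tuba1a had no probe set of its own.

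The series held 3 arrays and 1 group. Each array carried amplified RNA of 1 soma, the cell body, which the sample titles give as from a neuron. The published study describes hippocampal cultures dissected by glass pipette and calls its neurons pyramidal. Whether each of these somata was of that type was not tested. The cultures were made from Sprague-Dawley rat embryos of day 19, and the neurons were kept for 14 days as dispersed primary cultures and received no treatment, and the somata are called cell 1, cell 2 and cell 3 by their replicate number. The labels call them biological replicates but name neither animal nor dish, and with 1 array per soma no difference between somata has a replicate check.

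Microtubules are hollow tubes of alpha and beta tubulin dimers that give axons and dendrites their shape and serve as tracks for transport. Rodents carry several genes for each subunit, and the encoded isotypes differ mostly in their acidic tails, where enzymes add or remove amino acids and where many microtubule-binding proteins attach. Growing neurons make large amounts of tubulin and favour certain isotypes, among them Tuba1a, Tubb2a, Tubb2b and Tubb3, and in humans mutations of several of these genes disturb the migration and wiring of cortical neurons.

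Values are log2 intensities, and a percentile is the place of a gene among all 14218 genes of its array. Because probes differ in how strongly they bind, a percentile depends on the probe set as well as on the RNA, and the order of isotypes by percentile is not an order of RNA amounts. Background was the 95th percentile of 126 genes that neurons are not expected to use, such as olfactory receptors and milk proteins, and lay at 9.55 log2 in cell 1, 9.94 in cell 2 and 9.37 in cell 3. Across the array, 8.12% of genes were above background in cell 1, 6.2% in cell 2 and 11.3% in cell 3, and 2.27% were above it in every cell. Cell 1 differed from cells 2 and 3 in RNA controls and in markers. The 3' end of Gapdh exceeded its 5' end by 0.20 log2 in cell 1, 3.06 in cell 2 and 2.93 in cell 3. Of 7 microglia markers 4 were above background in cell 1 and 0 in cells 2 and 3, and of 7 astrocyte markers 2 were above it in cell 1 and 0 in the others. Neuron markers were above background for 4, 3 and 7 of 9 genes in cells 1, 2 and 3, and markers of pyramidal neurons for 2, 2 and 4 of 7 measured, with Neurod2 the highest of them and Camk2a the lowest by mean percentile. In the list of neuron markers Stmn4 was the highest and Nefl the lowest by mean percentile. Vascular markers were above background for 1 of 7 in each cell, namely Vwf, at percentiles 99.82, 99.85 and 99.75 in cells 1, 2 and 3. GABAergic markers also gave 1 of 7 in each cell. This was Calb2 in cells 1 and 3 (98.3 and 99.1) and Vip in cell 2 (97.0). Markers of oligodendrocytes were above background for 0, 1 and 0 of 6 measured. The part of these differences in the tubulin values was not tested.

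Of the 5 measured isotypes, Tubb2b and Tubb2a stood near the top of every array. By mean percentile Tubb5 came next and Tubb3 after it, although Tubb3 stood above Tubb5 in cell 1 and Tuba4a above Tubb5 in cell 3. Tubb3 was below background in every soma, and Tuba4a ran from near the bottom of one array to the top 5% of another. In cells 1, 2 and 3 the number of isotypes above background was 2, 2 and 4. Those above it in every cell were Tubb2a and Tubb2b, and the same pair lay in the top 5% of every cell, as did 1.39% of all genes. The isotypes were chosen for these levels, so nothing is read from the counts. Their median percentile was 85.8 in cell 1, 92.3 in cell 2 and 96.3 in cell 3, on average 91.5 ± 5.30 (SD, n = 3 cells). The remaining 7 tubulin genes on the array had medians of 59.5, 61.8 and 72.2 in the same cells, on average 64.5 ± 6.75 (SD, n = 3 cells). The 5 of these that are alpha or beta tubulins had higher medians of 69.3, 76.6 and 87.4, on average 77.8 ± 9.14 (SD, n = 3 cells). A median of 50 holds for all genes by construction.

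**Figure D1:**
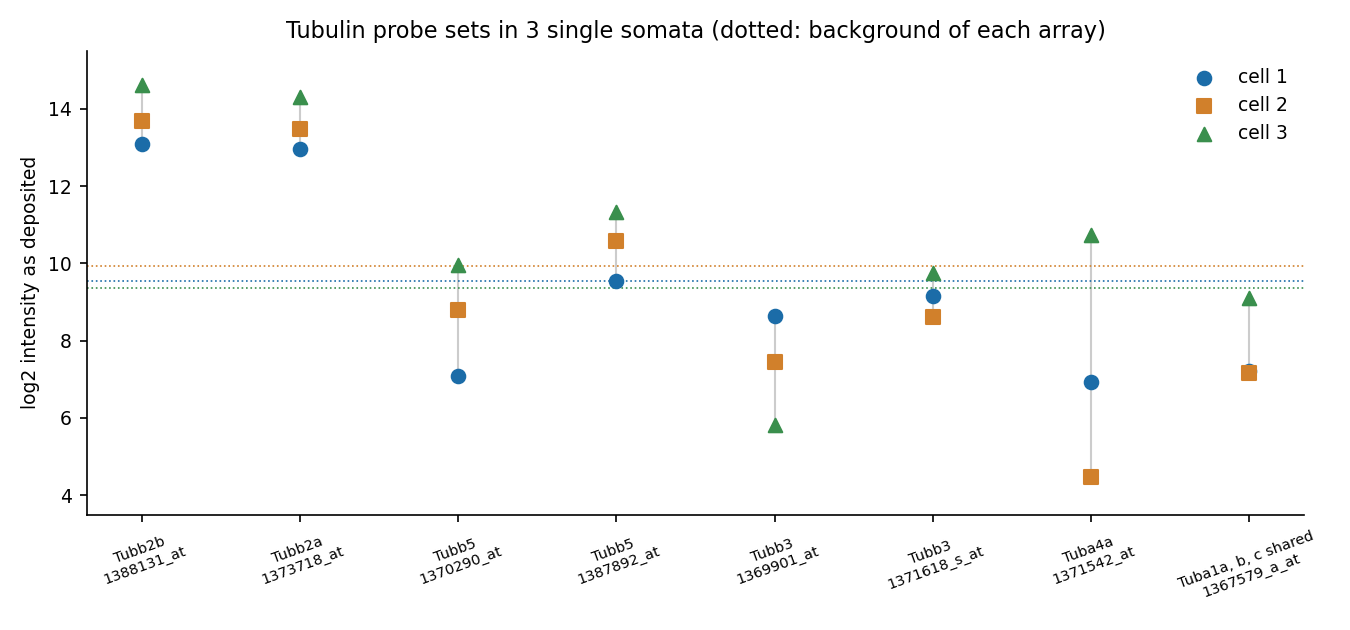
Deposited log2 intensity (vertical axis) of the 7 probe sets of the 5 measured isotypes and of 1 probe set shared by Tuba1a, Tuba1b and Tuba1c, with 1 point per soma and a grey line over their range. Dotted lines mark the background of each array in the colour of its soma; Tubb2b and Tubb2a lie at least 3.40 log2 above it in every cell.

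Tubb2b, a beta tubulin of young neurons whose human counterpart is mutated in polymicrogyria, was read by the probe set 1388131_at. Its log2 intensity was 13.08 in cell 1, 13.69 in cell 2 and 14.61 in cell 3, or 13.79 ± 0.77 (SD, n = 3 cells). That placed it 14th from the top of 14218 genes in cell 1, 4th in cell 2 and 2nd in cell 3. Its smallest distance above background was 3.52 log2. Tubb2a, a close paralogue that is also abundant in brain, was read by 1373718_at at 12.96, 13.47 and 14.31 log2 in cells 1, 2 and 3, or 13.58 ± 0.68 (SD, n = 3 cells). It stood 18th, 6th and 4th from the top, and its smallest distance above background was 3.40 log2. Both genes thus read lowest in cell 1 and highest in cell 3, and neither came near background in any soma. The mean percentiles, 99.96 ± 0.045 for Tubb2b and 99.94 ± 0.053 for Tubb2a (SD, n = 3 cells), differed by less than their spread over the somata, although Tubb2b stood above Tubb2a in each of the 3 somata. As separate probe sets read the pair, this does not order the amounts of RNA.

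The pair also differed between somata by like amounts. After quantile normalisation, which gives the arrays the same distribution of values, Tubb2b was 0.63 log2 higher in cell 2 than in cell 1, 1.40 higher in cell 3 than in cell 1 and 0.77 higher in cell 3 than in cell 2. For Tubb2a the same differences were 0.52, 1.19 and 0.67 log2. The gap between the 2 genes in these differences was 0.21 log2 at most. Their ranges over the somata were unremarkable for the array: 47.1% of genes had a smaller range than Tubb2b and 37.8% a smaller one than Tubb2a, with a median range of 1.47 log2 over all genes. The coding sequences of Tubb2a and Tubb2b are nearly alike, the probe sequences were not used here, and how far each probe set also binds the RNA of the other gene was not tested. In the rat RefSeq gene table both genes lie on chromosome 17, where the order of protein-coding genes is Psmg4, Tubb2b, Tubb2al1, Tubb2a and Bphl. Tubb2al1, a gene named as like Tubb2a, had no probe set of its own among those used.

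The 150 bases before the RefSeq start of Tubb2b and of Tubb2a (build GRCr8, plus strand, 5′ to 3′) are shown because these neighbouring genes read alike in every soma. Capitals mark matches, on either strand, to 5 motifs: TATAAA is the core of the TATA box, CCAAT the CCAAT box, GGGCGG the GC box, TGACGTCA the full cyclic AMP response element and CGTCA the core of that element, which also lies within it on both strands. The windows are chr17:30952936-30953085 for Tubb2b and chr17:31002036-31002185 for Tubb2a.
Tubb2b: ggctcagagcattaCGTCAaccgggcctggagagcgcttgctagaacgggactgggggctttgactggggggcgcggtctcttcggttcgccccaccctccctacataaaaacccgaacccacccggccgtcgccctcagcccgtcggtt
Tubb2a: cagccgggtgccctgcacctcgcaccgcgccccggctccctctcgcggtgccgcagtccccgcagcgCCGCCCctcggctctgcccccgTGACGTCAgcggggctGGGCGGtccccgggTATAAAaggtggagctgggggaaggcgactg

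The Tubb2a window held TATAAA at 31 to 26 bases before the start, TGACGTCA at 61 to 54 bases before it and a GC box on each strand. The Tubb2b window held only a CGTCA core, 136 to 132 bases before the start. The windows of the pair therefore had the CGTCA letters in common and differed in the other motifs searched. Over all 33469 rat promoter windows of this length, TATAAA was found in 8.0%, CCAAT in 23.5%, GGGCGG in 26.0%, TGACGTCA in 1.36% and CGTCA in 13.4%. Of the 6 isotypes, 5 had GGGCGG (all but Tubb2b), 3 had CGTCA (Tubb2a, Tubb2b and Tuba4a), 2 had CCAAT (Tubb3 and Tubb5), and TATAAA and TGACGTCA occurred in Tubb2a alone. A match describes letters and is no evidence of a bound site.

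Tubb5, the beta tubulin that most cell types make and that dividing cells rely on, had a gene value of 8.32 log2 in cell 1, 9.69 in cell 2 and 10.64 in cell 3. It was below background in cells 1 and 2 and above it in cell 3, and its percentile was 76.7, 92.3 and 95.9. Its 2 probe sets kept the same order of somata: 1370290_at read 7.09, 8.79 and 9.97 log2 in cells 1, 2 and 3, and 1387892_at read 9.54, 10.59 and 11.32. Cell 1 was thus lowest and cell 3 highest by both, with 1387892_at above background in cells 2 and 3 and 1370290_at in cell 3. In normalised values Tubb5 was 1.38 log2 higher in cell 2 than in cell 1 and 2.20 higher in cell 3 than in cell 1. Since the gene value was below background in cells 1 and 2, these differences measure no fold of RNA. The probe sets lay 43.3, 13.7 and 6.28 percentile points apart in the 3 cells, where the median gap over 3060 genes with a pair of probe sets was 28.5, 27.9 and 27.9.

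Tubb3 encodes the class III beta tubulin, which is largely restricted to neurons and is widely used as their marker. Its gene value was 8.90 log2 in cell 1, 8.02 in cell 2 and 7.79 in cell 3, at percentiles 85.8, 69.8 and 65.1, and it was below background in every soma. Its 2 probe sets did not give the same order. The probe set 1369901_at read 8.64, 7.44 and 5.83 log2 in cells 1, 2 and 3, and 1371618_s_at, a type that can match several transcripts, read 9.16, 8.60 and 9.76. By the 1st of these cell 3 was 2.70 log2 below cell 1 in normalised values, and by the 2nd it was 0.45 log2 above it and also above background. Their percentiles lay 6.58, 22.2 and 67.1 points apart in cells 1, 2 and 3. The direction of the Tubb3 difference between cells 3 and 1 therefore depended on the probe set.

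Tuba4a, an alpha tubulin whose gene does not encode the terminal tyrosine that other alpha tubulins carry and whose human counterpart has been linked to motor neuron disease, varied the most of the 5. Its only probe set, 1371542_at, read 6.94 log2 in cell 1, 4.48 in cell 2 and 10.73 in cell 3. The gene stood at percentile 40.6 in cell 1, 1.27 in cell 2 and 96.3 in cell 3, and it was above background in cell 3 alone. Normalised values in cell 3 were 3.72 log2 above those of cell 1 and 6.08 above those of cell 2, but with cells 1 and 2 below background these gaps describe readings of the probe set and measure no fold of RNA. With 1 probe set and 1 array per soma, the value of cell 3 rests on 1 measurement.

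The promoter window of Tuba4a (GRCr8, chr9:84162585-84162734, minus strand, 5′ to 3′) is shown for comparison with those of Tubb2a and Tubb2b. It held GC boxes on both strands and a CGTCA core on the reverse strand, 103 to 99 bases before the start, with capitals as above.
Tuba4a: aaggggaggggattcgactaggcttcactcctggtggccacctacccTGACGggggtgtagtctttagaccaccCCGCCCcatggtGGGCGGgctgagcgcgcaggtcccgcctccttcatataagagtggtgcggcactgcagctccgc

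Tuba1a, the main alpha tubulin of developing neurons, could be read only through 1367579_a_at, which the annotation assigns to Tuba1a, Tuba1b and Tuba1c together. This probe set read 7.21 log2 in cell 1, 7.17 in cell 2 and 9.10 in cell 3 and was below background in each. Its normalised value was 1.94 log2 higher in cell 3 than in cell 1 and 1.90 higher in cell 3 than in cell 2, while cells 1 and 2 lay 0.04 apart. The amount of Tuba1a RNA in these somata cannot be given from it, since the RNAs of all 3 genes could contribute.

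**Figure D2:**
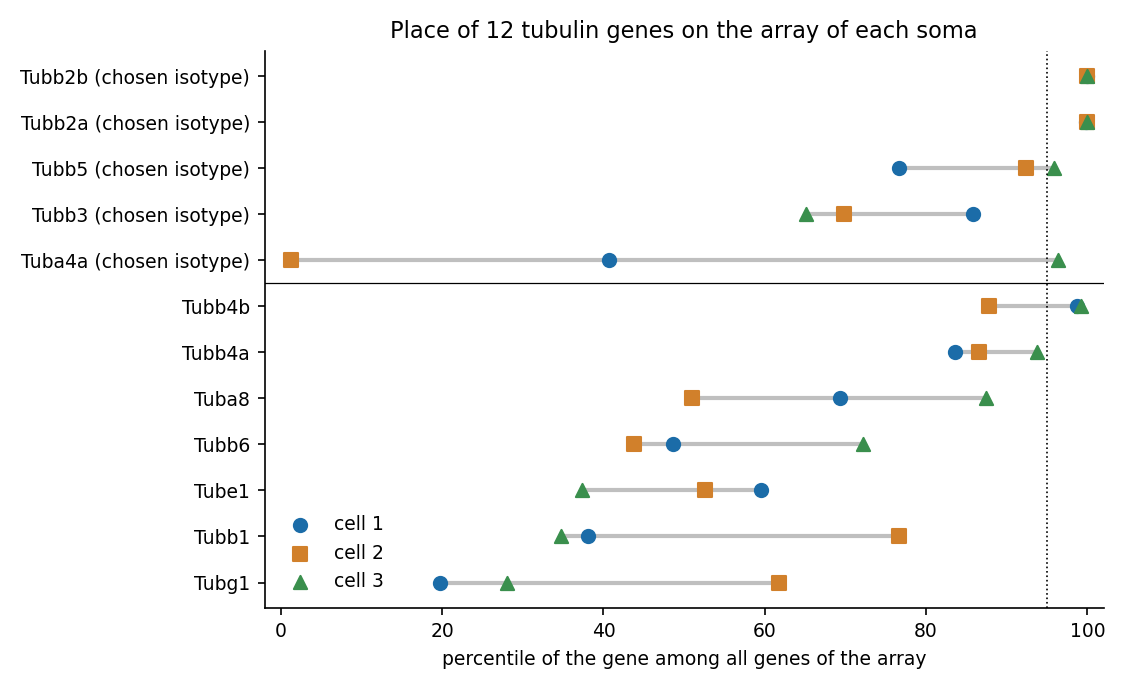
Percentile of 12 tubulin genes among the 14218 genes of each array (horizontal axis), with the 5 measured isotypes above the line and the other tubulins below it, 1 point per soma and a grey bar over the range; the dotted line marks the top 5%. Tubb2b and Tubb2a sit at the upper end in every soma, and Tuba4a spans from 1.27 to 96.3.

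By mean percentile the isotypes ran Tubb2b, Tubb2a, Tubb5 (88.3 ± 10.2), Tubb3 (73.6 ± 10.9) and Tuba4a (46.1 ± 47.8; SD, n = 3 cells each). The lowest place of Tubb2a was above the highest of Tubb5, while the values of Tubb5 and Tubb3 overlapped, as did those of Tuba4a with both. The ranges of all 7 other tubulins overlapped with that of Tuba4a. Tubb4b, Tubb4a and Tuba8 overlapped with Tubb5, and Tubb4a, Tuba8, Tubb6 and Tubb1 with Tubb3, while Tubg1 and Tube1 overlapped with neither. Tubb4b, a beta tubulin of many tissues and of cilia, came closest to the top pair with 11.21, 9.14 and 11.84 log2 in cells 1, 2 and 3, at percentiles 98.7, 87.7 and 99.2. It was above background in cells 1 and 3 and below it in cell 2. Tubb4a, which is prominent in myelinating glia and adult brain, stood at 83.6, 86.6 and 93.8, and the alpha tubulin Tuba8 at 69.3, 51 and 87.4. Tubb6 lay at 48.6, 43.7 and 72.2, and Tubb1, the beta tubulin of platelets, at 38.1, 76.6 and 34.7. Tubg1, the gamma tubulin from which microtubules are nucleated, had percentiles of 19.8, 61.8 and 28.0, and Tube1, the epsilon tubulin of centrioles, 59.5, 52.6 and 37.4. None of these 7 genes was above background in every soma, and 5 of them were above it in none. Of all genes, 2.27% were above it in every soma, and 8.12%, 6.2% and 11.3% were above it in cells 1, 2 and 3. Most genes of the array were thus above it in none, so that count does not set these tubulins apart.

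Differences between somata were taken for all 5 isotypes, but Tubb2a and Tubb2b alone were above background on both sides of each pair. For Tubb3, Tubb5 and Tuba4a at least 1 side was below it, so their differences, and the counts and means that hold them, describe readings and not levels. Between cells 2 and 1, Tubb5 was more than 1 log2 higher in cell 2 and Tuba4a more than 1 log2 lower, where 24.9% of all genes were higher and 21.8% lower by that amount. The mean difference over the 5 was -0.15 ± 1.49 log2 (SD, n = 5 genes). Between cells 3 and 1, Tubb2b, Tubb2a, Tubb5 and Tuba4a were more than 1 log2 higher in cell 3 and Tubb3 was more than 1 log2 lower, against 28.5% and 21.9% of all genes. The mean was 1.48 ± 1.76 log2 (SD, n = 5 genes), where the median of all genes was 0.26. Between cells 3 and 2, Tuba4a alone was more than 1 log2 higher in cell 3 and 0 isotypes were lower, against 19.4% and 17% of all genes, and the mean was 1.62 ± 2.53 log2 (SD, n = 5 genes). Each of these means was smaller than the spread among the isotypes. The 7 other tubulins had median differences of -0.13 log2 for cell 2 minus cell 1, 0.43 for cell 3 minus cell 1 and 1.01 for cell 3 minus cell 2. For the 5 alpha and beta tubulins among them these were -0.13, 1.00 and 1.14 log2.

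**Figure D3:**
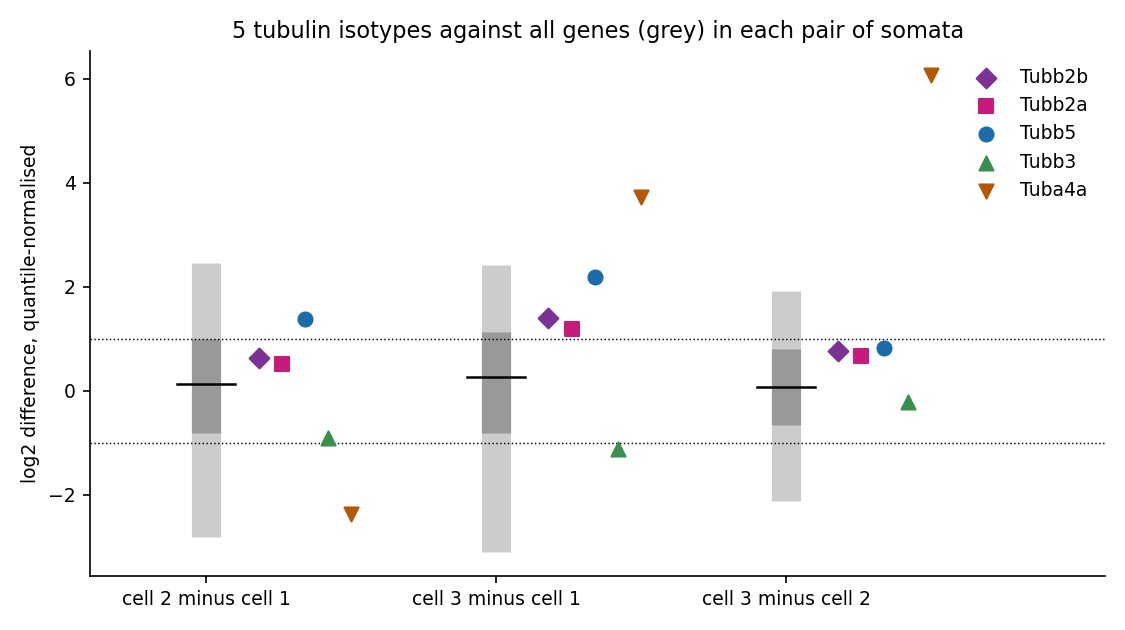
Quantile-normalised log2 difference (vertical axis) of the 5 measured isotypes for each pair of somata, beside the 5th to 95th (light grey) and 25th to 75th (dark grey) percentile range and the median (black line) of 14218 genes. Tuba4a lies outside the light bar for cell 3 minus cell 1 and cell 3 minus cell 2, and Tubb2b and Tubb2a stay beside each other in every pair.

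Tubulin folds on a chaperonin and is joined into dimers by dedicated cofactors, and the genes of these steps were spread widely over the arrays. The CCT chaperonin, a ring that folds newly made tubulin and actin, had 8 of 8 subunits measured with median percentiles of 62.7, 78.1 and 81.7 in cells 1, 2 and 3. Within the ring, which holds equal numbers of each subunit, Cct4 stood at 98.0, 99.1 and 99.4 and Cct3 at 95.2, 93.2 and 98.2, while Cct8 stood at 15.4, 21.9 and 36.4. Cct4 was above background in every soma, as were 2.27% of all genes, and 5 subunits, like most genes of the array, were above it in none. Prefoldin, which hands unfolded chains to the chaperonin, had medians of 60.1, 20.4 and 50.1 for 5 of 6 subunits, with Pfdn1 the highest at 75.2, 83.4 and 92.0, Pfdn2 at 60.1, 67.0 and 76.0 and Pfdn6, the lowest by mean percentile, at 9.39, 10.7 and 13.3. Pfdn5 was lower than Pfdn6 in cells 2 and 3. Among 7 of 7 dimer cofactors (medians 57.2, 62.3 and 72.0), Tbca, which holds free beta tubulin, was above background in every soma at percentiles 97.6, 95.6 and 96.3. Tbcc, which completes the dimer, stood at 93.6, 95.5 and 71.1, and Arl2, a small GTPase that works with the cofactors, at 21.1, 49.3 and 42. Ttc5, which recognises nascent tubulin and brings about decay of its mRNA when free dimers are plentiful, stood at 73.4, 60.0 and 28.0 and was below background in each soma.

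Enzymes that modify the tails and the lumen of microtubules were mostly below background, as were most genes of the array. Above it were 8.12%, 6.2% and 11.3% of all genes in cells 1, 2 and 3. Of 4 genes that remove or restore the terminal tyrosine of alpha tubulin, Vash1, a tyrosine carboxypeptidase, was at 70.4, 94.5 and 90.8, above background in cells 2 and 3, and its relative Vash2 was at 81.2, 53.0 and 56.0. Their partner Svbp was the lowest at 8.71, 16 and 18.3. Of the TTLL enzymes, which add glutamate or glycine chains, 7 of 13 were measured, with medians of 42, 23.0 and 61.3 and none above background in any soma. Ttll13 stood at 54.7, 63.2 and 79.6 and Ttll7, a glutamylase of beta tubulin in neurons, at 70.9, 41.6 and 72.5, and Ttll3, the lowest by mean percentile but in cell 2 alone the lowest of the list, at 29.6, 6.93 and 29.3. Agtpbp1, a deglutamylase whose loss kills Purkinje cells in mice, was the only 1 of 6 measured and stood at 63.5, 52.0 and 18.9. The 3 genes for lysine acetylation of alpha tubulin were also below background in every soma, with Hdac6, a deacetylase, at 20.8, 83.2 and 57.8, the acetyltransferase Atat1 at 37.3, 67.6 and 32.7 and Sirt2, the other deacetylase, at 12.5, 48.6 and 28.7.

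Averaged over the 3 somata, genes for nucleation and severing had lower medians than the enzyme lists above, but not in every soma. For their counts the share of all genes above background was again 8.12%, 6.2% and 11.3% in cells 1, 2 and 3. All 7 measured genes of the gamma-tubulin ring complex, of 8 listed, were below background in each soma, with median percentiles of 30.2, 32.2 and 41.4, of which Tubgcp3 was the highest at 73.7, 77.0 and 81.4, Tubgcp6, the next by mean percentile, stood at 43.4, 47.8 and 44.3, and Nedd1, which brings the complex to spindle and centrosome, was among the lowest genes of every array at 0.225, 0.0211 and 2.01. The severing enzymes (4 of 7 measured) had medians of 20.3, 18.4 and 36.9 and were below background throughout, with Fignl1 at 26.0, 55.3 and 57.4, Katnal1 at 14.6, 24.7 and 85.8 and the katanin Katna1 at 7.85, 12.2 and 16.4. Proteins that track growing plus ends had medians of 55.6, 72.7 and 76.3 over 8 of 8 genes. Clasp2, which stabilises microtubules at the cortex, read 86.7, 90.7 and 94.4, the end-binding gene Mapre2 77.5, 86.6 and 94.1, and Clip1 was the lowest at 13.0, 3.82 and 20.7.

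Of the lists, that of the stathmins stood highest. These are small proteins that bind free tubulin dimers and favour disassembly. Their medians over 4 of 4 genes were 99.1, 99.4 and 99.7 in cells 1, 2 and 3. Of the 4, 3 were above background in every soma, against 2.27% of all genes. The list was chosen with earlier results of these arrays known, so nothing is read from this count. Stmn4 read 13.07, 13.09 and 14.29 log2 and Stmn1 11.53, 12.79 and 13.26. Stmn2, a stathmin of growing axons, was the lowest and stood at 72.1, 85.2 and 95.3. Of the 4 stathmins, 3 were more than 1 log2 higher in cell 3 than in cell 1, the difference that 28.5% of all genes passed. Stmn2, 1 of these 3, was below background in cell 1. Proteins that lie along the microtubule wall had medians of 66.1, 82.7 and 77.5 over 11 of 11 genes. Mapt, the axonal protein tau, was above background in every soma at 10.79, 11.66 and 12.08 log2, and Map1b, a protein of growing axons, read 7.93, 10.77 and 11.29 log2. Map2, the classical marker of dendrites and cell bodies, was the lowest by mean percentile and in cells 1 and 2, at 28.7, 17.7 and 67.5, but not in cell 3. In this list 7 genes were more than 1 log2 higher in cell 3 than in cell 1 and 2 were lower, against 28.5% and 21.9% of all genes. Of the 11 genes, 7 were above background in no soma, as were most genes of the array. Mapt alone was above it in every soma, against 2.27% of all genes. All these differences but that of Mapt therefore involve a value below background and describe readings, not levels.

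**Figure D4:**
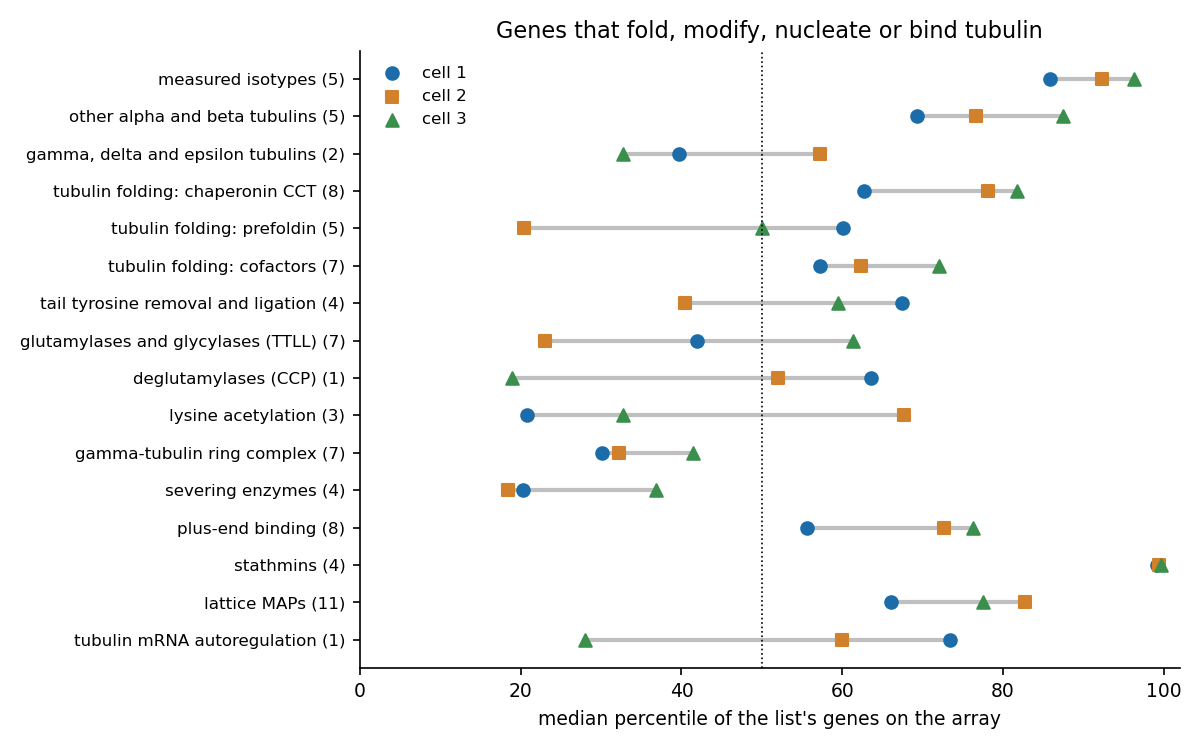
Median percentile (horizontal axis) of each gene list on the array of each soma, with the number of measured genes in brackets, 1 point per soma and a grey bar over the range; the dotted line marks 50, the median of all genes. Stathmins lie above the measured isotypes in every soma, and the gamma-tubulin ring complex and the severing enzymes lie below 50.

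Genes with a like pattern over the somata were looked for among those whose mean exceeded the mean background. The measure was the distance between normalised log2 values centred on each gene's own mean over 3 cells. The mean profile of the 5 isotypes was -0.44 log2 in cell 1, -0.59 in cell 2 and 1.03 in cell 3. Of 726 candidates, Schip1, a protein of the axon initial segment and nodes, was nearest at a distance of 0.0597 log2, followed by Iqsec3 (0.172), a regulator of inhibitory synapses, the ribosomal protein gene Rpl3 (0.209), Ndrg4 (0.222) and Rab5if (0.255). Of these neighbours, Ndrg4 was above background in every soma, and the others in cell 3 alone, where the mean profile was highest. Those others passed the filter on the mean through cell 3, so likeness to a profile high there was partly built in. With 3 values per profile this likeness is a description, and Tuba4a, which had the widest range of the 5, weighed most in the mean profile. That profile was lowest in cell 2, where Tuba4a was below background. The difference of cell 2 minus cell 1 was 0.63, 0.52 and 1.38 log2 for Tubb2b, Tubb2a and Tubb5. It was -0.90 and -2.36 log2 for Tubb3 and Tuba4a. For Tubb2b alone, a search added after the values were seen, the nearest of 727 candidates were Ptdss1 (0.0152), Sae1 (0.0543) and Fabp3 (0.0622), and Tubb2a was 7th at 0.148. Ptdss1, Sae1 and Fabp3 too were above background in cell 3 alone.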

How the data were processed

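RNA of 3 single rat somata was amplified by antisense RNA amplification, with a final round of 14 h using the Ambion Illumina TotalPrep kit, and 5 µg were labelled with biotin per array. The authors deposited 1 log2 value per probe set of an Affymetrix rat array, for which the submitters' processing notes name RMA 2.0. The genome build was not given in the sources used here. The published methods describe an upper-decile summary with median centring for dendrite arrays and do not describe these somata. The deposited values had medians of 7.23, 7.16 and 7.09 log2 and so were not centred. They held 2889, 2866 and 2090 distinct values in cells 1, 2 and 3 for 31099 probe sets, so many probe sets shared a value. The number of arrays limits the precision, and no p-value was computed.

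Symbols came from the platform annotation, which can be old. Of 31099 probe sets 20832 had 1 symbol and 436 had several. Where a gene had several single-symbol probe sets, their median was used. Percentiles used the deposited values, and differences between somata used values quantile-normalised over all probe sets. Background rested on 29 receptor genes and 97 genes of other organs. The isotypes and gene lists were chosen with earlier results of these data known. Genes were named by rule: every tubulin, the 2 highest and the lowest gene of each list by mean percentile, the highest and lowest neuron and pyramidal markers, and the 5 nearest profiles. Vascular and GABAergic markers above background were named as well. Promoter sequences and gene order came from RefSeq tables of build GRCr8, in which all 6 isotypes matched by symbol, and the gene number of the annotation matched for 5 of them. Python 3.11.15, numpy 2.4.6, pandas 2.3.3 and matplotlib 3.10.9 were used. The normalisation and the count of genes past 1 log2 were tested on simulated data with little noise. The background, top 5% and nearest-profile steps were not tested in this way. Alternatives covered the probe set taken per gene, ambiguous probe sets, the ranking universe, the background, the fold, the normalisation and leaving out each soma.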

Additional observations from a re-analysis of the deposited data

How the results depend on the processing

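The median percentile of the isotypes (91.5) was 99.1 when only genes whose mean exceeded background were ranked, which left 2 isotypes, and 86.2 when the shared Tuba1 probe set was counted as Tuba1a, a setting chosen after seeing the data. Counting differences from 0.5 log2 gave 3 isotypes higher and 2 lower in cell 2 than in cell 1, against 1 and 1 as reported, and 4 higher in cell 3 than in cell 2, against 1. Differences of that size were common on the arrays. The 25th and 75th percentiles of all genes were -0.82 and 0.99 log2 for cell 2 minus cell 1. For cell 3 minus cell 2 they were -0.66 and 0.80 log2. Nothing is read from these counts. Leaving out 1 soma at a time put the median of the isotypes between 89.1 and 94.3 and that of the other tubulins between 60.7 and 67.0, and the 2 isotypes above background and the 2 in the top 5% of every soma stayed 2. Tubb2a and Tubb2b were in the top 1% of every soma. Tuba4a averaged 20.9 without cell 3 and 68.5 without cell 2, so its mean percentile rests on single somata. Tubb3 averaged 51.8 without the probe set that can match several transcripts. Tubb3, Tubb5 and Tuba4a gave no value under the filter on background. Of the alternatives to the main results, 59 stayed within the spread or within 1.5 times the count and 5 moved, and none reversed. Of those for single isotypes 30 stayed and 7 moved. For the mean differences the spread was the SD among isotypes, which exceeded each mean, so staying within it says little. Tubb2a and Tubb2b had 1 probe set each, so the choice of probe set left their log2 values unchanged. No paired analysis was possible because all somata form 1 group. No scanner signals or detection calls were used, so differences that involve values below background cannot be read as changes in level, and 1 array per soma cannot separate a difference between cells from one made by amplification.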

Other observations

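Among the probe sets that the annotation gives to more than 1 gene, 2 were shared by Tubb4b and C7, a complement gene. The probe set 1383291_at read 5.39 log2 in cell 1, 9.88 in cell 2 and 6.00 in cell 3, and 1388557_at read 6.35, 4.62 and 5.01. Neither was above background in any soma, and they had no place in the gene values. The probe set of Tubb4b alone read 11.21, 9.14 and 11.84 log2 in the same cells. For Actb, the actin gene often used as a control, the probe set at the 3' end read 0.32 log2 above the one at the 5' end in cell 1, 2.07 above it in cell 2 and 1.71 above it in cell 3. As for Gapdh, the gap was smallest in cell 1.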
